A study of Homo sapiens with 9 samples.

Results

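The genes described here are the CCN matricellular family (CCN1 to CCN5) together with widely used targets of the transcriptional co-activator YAP (ANKRD1, AMOTL2, AJUBA, LATS2 and AXL). They were taken by symbol from the array's annotation, which gives each of the 10 genes exactly 1 probe set, none of it shared with another gene, among 33297 probe sets and 18417 named genes in all. CCN1 and CCN2 belong to both sets, so that 7 of the 10 genes count as YAP targets. Expression was measured in NCI-H295R cells, a steroid-producing human adrenocortical carcinoma line, on GeneChip Human Gene ST arrays with 3 replicates (A, B and C) in each of 3 groups. All cells first spent 24 h in normal growth medium. For the next 48 h they were kept in serum-free medium with 10 mM metformin (starvation with metformin), in serum-free medium alone (starvation) or in normal growth medium (normal growth). The growth medium held NU-I serum and also insulin, transferrin and selenium, and the starvation medium held none of these, so loss of serum and loss of the supplements cannot be told apart. For starvation and normal growth the published methods speak of 3 independent experiments, without stating whether each held an array of both groups. Metformin is described only in the sample labels, which do not state whether its 3 arrays are separate cultures, so p-values involving them reflect array-to-array spread that could be technical.

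CCN proteins are secreted into the matrix, where they bind integrins, heparan sulphate proteoglycans and growth factors and shape adhesion, survival and matrix production. CCN1 (formerly CYR61) and CCN2 (formerly CTGF) are immediate early genes that respond to serum, to TGF-beta and to YAP and its relative TAZ, whereas CCN3 (formerly NOV) often opposes growth and is known to be made by the adrenal cortex. In the Hippo pathway the kinases STK3 and STK4 activate LATS1 and LATS2, which phosphorylate YAP and TAZ and keep them out of the nucleus. When the kinases are inactive, YAP and TAZ enter the nucleus, bind TEAD factors and switch on genes such as CCN1, CCN2 and ANKRD1. Serum and a spread, attached cell shape favour YAP activity, and energy stress through AMP-activated kinase restrains it. Metformin is an antidiabetic biguanide that inhibits mitochondrial respiration and is widely used to raise AMP-activated kinase activity.

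The deposited values are log2 signals made by RMA, which corrects the background, gives all arrays a common distribution of probe signals and summarises the probes of a set. A difference of 1 is therefore a 2-fold difference. Probes differ in brightness, so where signals of different genes are ranked or summed, they are not read as amounts of transcript. Where CCN1 and CCN2 are set against each other, only the change of their difference between groups is read. Array medians lay between 6.04 and 6.16 and values between 1.57 and 13.7. Correlations between arrays over all probe sets were 0.990 to 0.995 with metformin, 0.994 to 0.997 under starvation and 0.996 to 0.997 under normal growth, and 0.984 to 0.997 between groups. Adrenocortical markers were present: 6 of the 9 measured were above the array median on every metformin array, and 7 on every starvation and every normal growth array, while CYP11B1 and MC2R had mean log2 signals of 5.83 and 5.60. Of 10 fibroblast markers 0 were called in any comparison (1, 1 and 2 at an unadjusted p under 0.05), and 3 of the 10 were above the array median on every array of all 3 groups. FAP, COL1A1 and COL3A1 had the highest mean log2 signals of that list, 7.77, 7.29 and 6.20, and LUM, POSTN and DCN had 2.76, 3.08 and 3.23. Among 8 endothelial and 7 immune markers 0 were called and 0 had an unadjusted p under 0.05.

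Each pair of groups was compared with limma over all probe sets, with Benjamini-Hochberg adjustment over all of them, and a gene is said to have risen or fallen where the adjusted p was under 0.05. The 3 comparisons share arrays pairwise and are not independent of each other. In starvation against normal growth 0 of the 10 genes rose and 1, CCN3, fell. The background there was 0.150% of all probe sets called, 0.0420% higher and 0.108% lower, with 0.0240% both called and changed at least 2-fold. At an unadjusted p under 0.05 there were likewise 0 genes higher and 1 lower, where 3.30% of all probe sets were higher and 4.74% lower. With metformin, 0 genes rose and CCN3 fell relative to starvation, against a background of 4.28% called, 2.30% higher and 1.98% lower, with 0.324% called at 2-fold or more. Here 2 genes were higher and 1 was lower at an unadjusted p under 0.05, where 11.3% of all probe sets were higher and 8.63% lower. Relative to normal growth, CCN1 rose and CCN3 fell in starvation with metformin, against 9.07% called, 4.63% higher and 4.44% lower, with 0.547% called at 2-fold or more. At an unadjusted p under 0.05 2 genes were higher and 1 was lower in this comparison, and 11.7% of all probe sets were higher and 11.2% lower. CCN3 in this last comparison was the only one of the 10 genes to pass 2-fold. The median log2 change of the 10 genes was -0.02, -0.06 and -0.04 in the 3 comparisons in this order, and the median over all probe sets was -0.001, -0.007 and -0.003.

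The values of the 2 groups did not overlap for 2 of the 10 genes (CCN3 and LATS2) in starvation against normal growth, where 13.0% of all probe sets did not overlap. They did not overlap for 3 genes (CCN1, CCN3 and LATS2) in starvation with metformin against starvation, where the background was 25.2%, nor for the same 3 genes in starvation with metformin against normal growth, where it was 28.4%. Over all 9 arrays CCN3 spanned 1.78 log2 units and CCN1 1.17, ranges at the 98.1st and 93.4th percentiles of all probe sets. ANKRD1 spanned 0.24 and stood at the 15.7th percentile. CCN3 and CCN1 thus varied more over these arrays than most probe sets, and ANKRD1 less than most. The genes were chosen with earlier results of these data known, and 1 exact ANKRD1 value recurred on 5 of the 9 arrays.

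**Figure D1:**
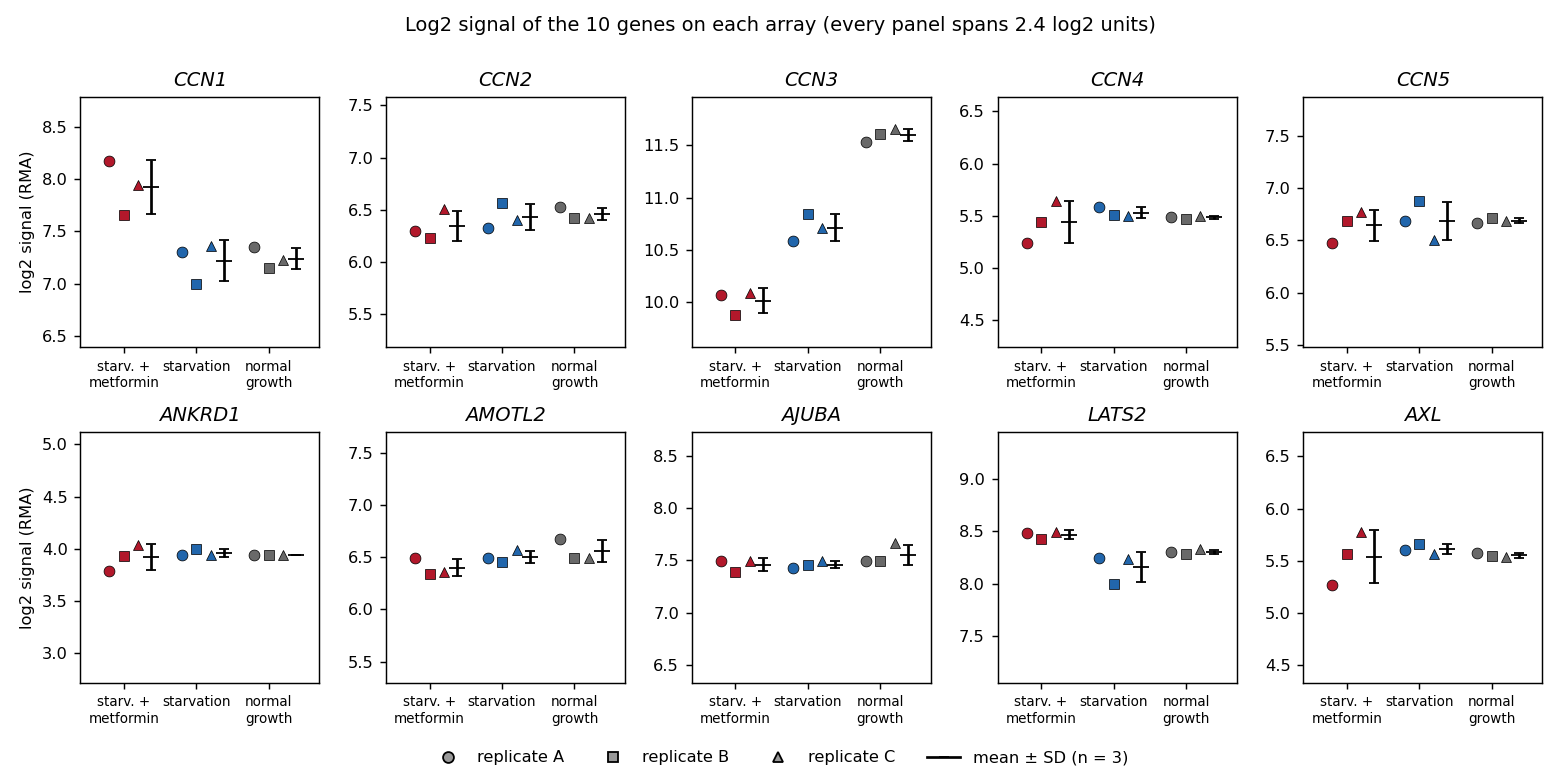
Log2 signal (vertical axis) of each of the 10 genes on every array, in groups from left to right for starvation with metformin, starvation and normal growth, with marker shapes for replicates A, B and C and bars for mean ± SD (n = 3). CCN3 steps through 3 separate levels with means of 10.01, 10.71 and 11.60, and CCN1 stands apart only with metformin. ANKRD1, AJUBA, AMOTL2 and CCN2 have the narrowest ranges of the 10 genes, and ANKRD1 has 1 exact value on 5 of the 9 arrays.

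CCN3 was lowest with metformin, intermediate under starvation and highest under normal growth. Its log2 signal on arrays A, B and C was 10.07, 9.87 and 10.09 with metformin, 10.59, 10.84 and 10.70 under starvation, and 11.53, 11.61 and 11.65 under normal growth. The 3 groups did not overlap, and the gap between neighbouring groups was wider than the whole range within any group. CCN3 fell to a mean of 10.71 ± 0.13 under starvation, against 11.60 ± 0.06 under normal growth (SD, n = 3 each). This log2 change of -0.89 (SE 0.08, 95% interval -1.08 to -0.70, 1.85-fold) had an adjusted p of 0.0329 by limma. It ranked 28th by p among all probe sets and 18th by size among named genes. The call rested on all 6 arrays: the change stayed between -0.95 and -0.83 when any single one was left out, but the adjusted p became 0.156, 0.0512 and 0.213 without starvation A, B and C, and 0.192, 0.219 and 0.281 without normal growth A, B and C.

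With metformin CCN3 averaged 10.01 ± 0.12, against 10.71 ± 0.13 under starvation alone (SD, n = 3 each). The change of -0.70 (SE 0.10, 95% interval -0.93 to -0.47, 1.62-fold) had an adjusted p of 0.0240 by limma. The call was lost without starvation A (adjusted p = 0.103), B (0.0720) or C (0.123) and without metformin A (0.0812) or B (0.0556), and it held without metformin C (0.0446). Metformin C and starvation B had the highest medians of their groups, and with both left out the change was -0.67 at an adjusted p of 0.0893. Against normal growth the metformin cells had a CCN3 signal lower by 1.59 log2 units (log2 change -1.59, SE 0.08, 95% interval -1.77 to -1.40, 3.01-fold, adjusted p = 0.00221 by limma). This was the 11th smallest p among all probe sets, and the call held with any single array left out. The summed linear signal of the 10 fibroblast markers was 559 to 564.1 under starvation and 676.2 to 731.7 under normal growth. This sum weighs most the brightest of them, FAP, COL1A1 and COL3A1. Their mean log2 signal over the list was 4.97 to 5.07 under starvation and 5.09 to 5.11 under normal growth. The median log2 change of the list was -0.02, with 0 markers called. With metformin the summed signal was 580.2 to 612.9, above starvation, while CCN3 was below its starvation values. The part of these markers in the CCN3 values was not tested. The adrenocortical sum was 10270 to 12730 with metformin, 11190 to 11880 under starvation and 12950 to 13620 under normal growth. Of the 9 adrenocortical markers, HSD3B2 fell in starvation against normal growth, 1 rose and 2 fell with metformin against starvation, and 1 rose and 3 fell with metformin against normal growth, and their part in the CCN3 values was not tested.

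CCN1, an immediate early gene and one of the standard readouts of YAP activity, showed another pattern. Its log2 signal on arrays A, B and C was 8.17, 7.65 and 7.95 with metformin, 7.31, 7.00 and 7.36 under starvation, and 7.35, 7.15 and 7.22 under normal growth. Every metformin array was above every other array, and the starvation arrays lay around those of normal growth. In starvation against normal growth the change was -0.02 (95% interval -0.29 to 0.25, adjusted p = 0.985 by limma), with means of 7.22 ± 0.19 under starvation and 7.24 ± 0.10 under normal growth (SD, n = 3 each). This interval leaves room for a change of up to 0.29 log2 units down or 0.25 up.

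Metformin cells had a CCN1 mean of 7.92 ± 0.26, against 7.24 ± 0.10 under normal growth (SD, n = 3 each). CCN1 rose by 0.68 (SE 0.14, 95% interval 0.35 to 1.02, 1.61-fold, adjusted p = 0.0366 by limma). This call held without metformin B (adjusted p = 0.0257) and was lost without metformin A (0.0697) or C (0.0697) and without normal growth A (0.105), B (0.139) or C (0.129). Against starvation alone the difference was of like size, 0.70 (SE 0.16, 95% interval 0.31 to 1.10, 1.63-fold), with an unadjusted p of 0.00462 and an adjusted p of 0.0730 by limma, so CCN1 was not called there. It was called in 4 of the 15 alternative fits, among them the fit of all 9 arrays together (adjusted p = 0.0195) and the fit without probe sets under the 40th percentile of mean signal (0.0366).

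CCN2, the family member most often read together with CCN1 as a YAP target and the classical TGF-beta responsive gene of the family, did not pass the test in any comparison. Its log2 signal on arrays A, B and C was 6.30, 6.23 and 6.50 with metformin, 6.32, 6.57 and 6.40 under starvation, and 6.52, 6.42 and 6.43 under normal growth. All 3 groups overlapped. The values lay close above the array medians of 6.04 to 6.16, and their mean stood at the 53.8th percentile of all probe sets. The change was -0.03 (95% interval -0.21 to 0.16, adjusted p = 0.960) in starvation against normal growth. It was -0.09 (95% interval -0.33 to 0.16, adjusted p = 0.707) in starvation with metformin against starvation, and -0.11 (95% interval -0.32 to 0.09, adjusted p = 0.500 by limma) against normal growth. The intervals of CCN2 with metformin lie below those of CCN1 against the same groups.

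Whether CCN1 and CCN2 differed in their response was also looked at within arrays, a choice made after their values had been seen. The log2 signal of CCN1 minus that of CCN2 was 1.42 to 1.87 on the metformin arrays, 0.43 to 0.98 on the starvation arrays and 0.72 to 0.82 on the normal growth arrays. The metformin arrays did not overlap with either other group, as was already so for CCN1 alone. The share of other gene pairs that lie apart in this way was not computed. The mean difference of 0.79 from starvation and of 0.80 from normal growth each gave an exact two-sided permutation p of 0.1 (0.15 adjusted over 3 comparisons), and 0.1 is the smallest p that 3 arrays against 3 can give. The adjustment does not cover the choice of this pair after its values were seen, so these p-values add no support. Between starvation and normal growth this quantity differed by 0.01 (exact permutation p = 1).

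The remaining CCN genes did not pass the test in any comparison. CCN4 (formerly WISP1), known as a target of WNT signalling, had log2 signals of 5.24, 5.44 and 5.64 on metformin arrays A, B and C, 5.59, 5.50 and 5.50 under starvation, and 5.49, 5.47 and 5.50 under normal growth. These values lay below the array median on all 9 arrays, as did those of CCN6, a family member outside the 10 genes, whose changes were at most 0.04. CCN5 (formerly WISP2), a member that lacks the carboxy-terminal domain of its relatives, had 6.48, 6.68 and 6.77 with metformin, 6.68, 6.87 and 6.51 under starvation, and 6.67, 6.72 and 6.68 under normal growth. The changes of CCN4 and CCN5 lay between -0.09 and 0.04 over the 3 comparisons, within the spread of the arrays. In the metformin group CCN4, CCN5, ANKRD1 and AXL all had their lowest value on array A and their highest on array C, and 3 of these 4 genes (CCN4, ANKRD1 and AXL) lay below the array median on all 9 arrays.

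Promoter sequence was available for 6 of the 10 genes (CCN2, ANKRD1, AMOTL2, AJUBA, LATS2 and AXL) as the 250 bases before the transcript start in RefSeq on GRCh38.p14, 9 windows in all because some genes have 2 starts. They were searched on both strands for the TEAD motif CATTCC, the AP-1 motif TGANTCA and the CArG box of serum response factor. The TEAD motif occurred in 5 of the 9 windows, against 11.9% of 35116 such windows over all genes. The windows with a match belonged to 5 of the 6 genes, a count by gene that this share does not match. These genes were taken as known YAP targets, a choice that favours TEAD matches. The AP-1 motif occurred in 1 of the 9 (6.57% of all windows) and the CArG box in 0 (1.16%), and no matches of different motifs overlapped. The windows of CCN2 and ANKRD1, the customary TEAD reporters, which were not called here, and of LATS2, whose groups did not overlap, are given 5′ to 3′ with TEAD and AP-1 matches in capitals (GGAATG is CATTCC read on the other strand).
CCN2 (chr6:131951373-131951622, minus strand): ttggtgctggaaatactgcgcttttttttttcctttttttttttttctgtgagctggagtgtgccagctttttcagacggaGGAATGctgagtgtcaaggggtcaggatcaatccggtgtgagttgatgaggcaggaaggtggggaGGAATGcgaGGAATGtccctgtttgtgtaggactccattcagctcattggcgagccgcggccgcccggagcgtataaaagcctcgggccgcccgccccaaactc
ANKRD1 (chr10:90921088-90921337, minus strand): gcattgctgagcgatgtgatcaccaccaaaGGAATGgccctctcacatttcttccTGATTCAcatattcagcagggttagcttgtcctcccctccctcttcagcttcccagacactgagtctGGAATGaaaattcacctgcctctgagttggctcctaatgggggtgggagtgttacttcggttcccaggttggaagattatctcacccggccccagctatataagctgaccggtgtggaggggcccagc
LATS2 (chr13:21061587-21061836, minus strand): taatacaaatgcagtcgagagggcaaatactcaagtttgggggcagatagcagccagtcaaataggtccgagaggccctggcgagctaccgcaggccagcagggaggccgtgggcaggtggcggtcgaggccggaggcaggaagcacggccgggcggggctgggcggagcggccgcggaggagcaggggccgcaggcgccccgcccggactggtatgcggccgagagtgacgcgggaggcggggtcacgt

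In CCN2 the TEAD matches began 169, 104 and 95 bases before the start, and in ANKRD1 220 and 128 bases before it, with an AP-1 match 195 bases before it. LATS2 had no match in this window. AMOTL2, AJUBA and AXL each had 1 TEAD match in 1 of their 2 windows, at 69, 59 and 212 bases before the start. These matches describe letters only. CCN1 and CCN3, the only called genes, had no promoter sequence here, so every gene searched was uncalled, with or without a match. Matches therefore could not be set against calls.

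LATS2, the kinase that phosphorylates YAP and is itself induced by YAP in a negative feedback, came closest to a call among the genes outside the CCN family. Its log2 signal on arrays A, B and C was 8.49, 8.42 and 8.50 with metformin, 8.25, 7.99 and 8.23 under starvation, and 8.30, 8.29 and 8.33 under normal growth. The groups lay apart in all 3 comparisons, highest with metformin and lowest under starvation. Of all probe sets 13.0% lay apart in starvation against normal growth. With metformin 25.2% did against starvation and 28.4% against normal growth. The difference between starvation with metformin and starvation was 0.31 (SE 0.08, 95% interval 0.10 to 0.52, 1.24-fold) with an unadjusted p of 0.0107 and an adjusted p of 0.111, and without starvation B, the lowest array, it was 0.23. It was called in 1 of 15 alternative fits, that of all 9 arrays (adjusted p = 0.0336). Metformin and normal growth differed by 0.17 (SE 0.05, adjusted p = 0.101), and starvation and normal growth differed by -0.15 (95% interval -0.34 to 0.05, adjusted p = 0.743 by limma). This last difference was -0.06 without starvation B.

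ANKRD1, a nuclear ankyrin repeat protein and the most used single YAP reporter gene besides CCN1 and CCN2, had a mean signal under the 40th percentile of all probe sets. Its log2 signal on arrays A, B and C was 3.79, 3.93 and 4.04 with metformin, 3.94, 4.00 and 3.94 under starvation, and 3.94, 3.94 and 3.94 under normal growth. Exactly 1 value recurred on 5 of the 9 arrays, including all 3 of normal growth, so the SD of 0 there is no measure of biological spread. Such repetition on at least 5 arrays was seen in 1512 probe sets, or 4.54%. No difference passed the test, and the fitted differences lay between -0.04 and 0.02.

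AMOTL2, an angiomotin that tethers YAP and is induced by it, had log2 signals of 6.50, 6.34 and 6.36 with metformin, 6.49, 6.45 and 6.57 under starvation, and 6.68, 6.50 and 6.50 under normal growth. Its group means were in that ascending order, with differences of -0.10 between metformin and starvation (adjusted p = 0.470) and -0.16 between metformin and normal growth (adjusted p = 0.300 by limma), but the groups overlapped. AJUBA, a LIM protein that restrains LATS kinases, had 7.49, 7.39 and 7.49 with metformin, 7.42, 7.46 and 7.49 under starvation, and 7.49, 7.49 and 7.66 under normal growth. Its metformin and starvation means differed by 0.00 (95% interval -0.14 to 0.14), and a value of 7.49 recurred exactly on 4 arrays. AXL, a receptor tyrosine kinase of the TAM family that YAP can induce, had 5.27, 5.57 and 5.78 with metformin, 5.61, 5.66 and 5.57 under starvation, and 5.58, 5.54 and 5.53 under normal growth. It lay below the array median on all 9 arrays, and its differences lay between -0.07 and 0.06, with its widest spread among the metformin arrays.

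**Figure D2:**
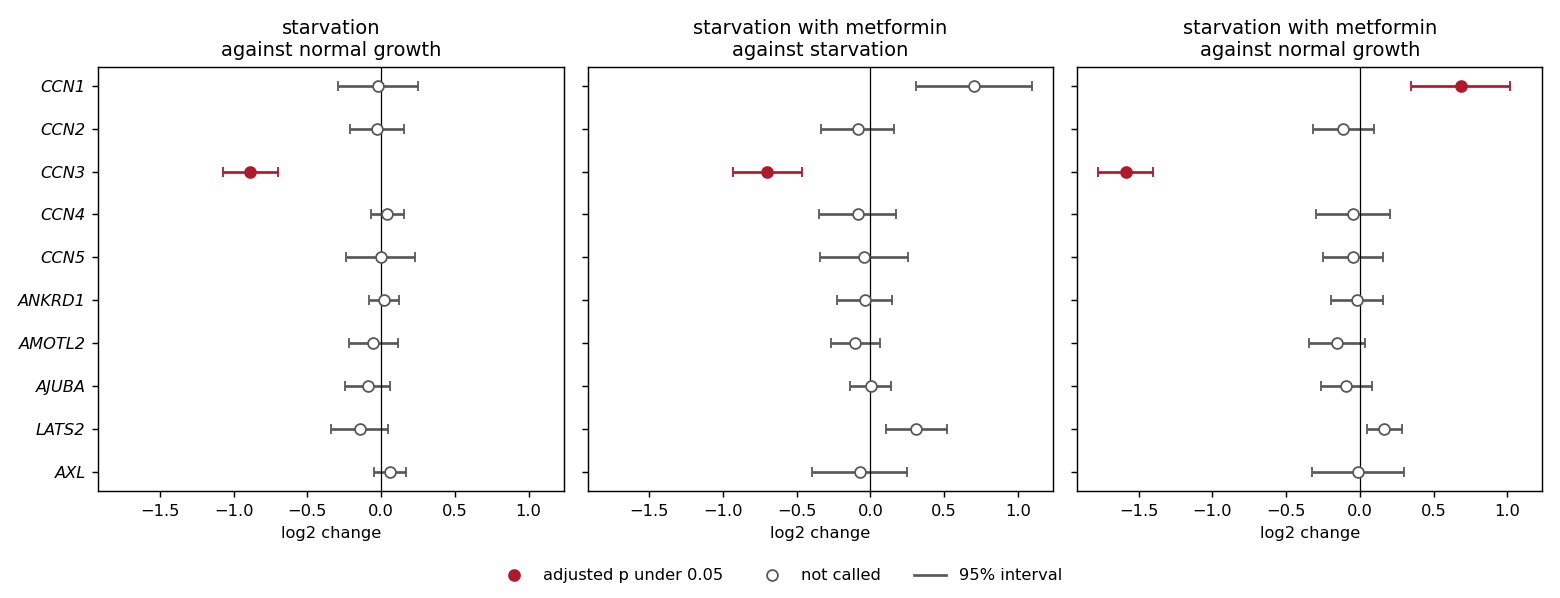
Log2 change (horizontal axis) of the 10 genes in the 3 comparisons, with 95% intervals from limma and filled points for an adjusted p under 0.05. CCN3 falls in every panel, by 0.89, 0.70 and 1.59, CCN1 stands at 0.70 without a call and at 0.68 with one in the metformin panels, and most of the other intervals include 0.

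The machinery around these genes was described from lists of pathway genes. In starvation against normal growth 0 genes of these lists were called in either direction, where 0.150% of all probe sets were. This covered 27 Hippo kinases and adaptors, 10 genes of YAP, TAZ and their DNA-binding partners, 27 further genes of published YAP/TAZ target signatures, 14 integrins and other CCN receptors, 5 TAM receptors and ligands, 14 TGF-beta pathway genes and 2 SRF pathway genes. At an unadjusted p under 0.05, passed by 3.30% of all probe sets higher and 4.74% lower, the further target genes gave 1 higher and 4 lower, and the Hippo kinases and adaptors 2 higher and 1 lower. The TGF-beta genes gave 0 higher and 4 lower, the TAM receptors and ligands 2 higher and 1 lower, the CCN receptors 1 higher and 1 lower, the co-activators and partners 1 higher and 0 lower and the SRF genes 0. Several genes are in more than 1 list.

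Relative to starvation, with metformin 1 of the 27 further target genes rose and 3 fell, with a list median of -0.03 against -0.007 over all probe sets. Of all probe sets 2.30% rose and 1.98% fell in this comparison. TGFB2, a TGF-beta ligand, rose by 0.62, and AMOT, an angiomotin that holds YAP in the cytoplasm, SLIT2, a guidance ligand, and BIRC5, the mitotic and anti-apoptotic protein survivin, fell by 0.62, 0.48 and 0.37. Of the Hippo kinases and adaptors 2 rose, the kinase scaffold SAV1 by 0.38 and WWC3 by 0.36, and AMOT fell. ITGA5, the alpha chain of the fibronectin receptor, rose by 0.69 as the only called gene of the 14 CCN receptors. Its signal was 9.12, 9.04 and 8.99 on metformin arrays A, B and C, against 8.39, 8.34 and 8.35 under starvation. TEAD4, a DNA-binding partner of YAP, fell by 0.40 and was the only called gene among the 10 of that list. Adjusted p-values of these 8 genes lay between 0.0119 (ITGA5) and 0.0445 (WWC3) by limma. Of the 8, 0 stayed called without metformin A or without starvation A, B or C. Without metformin B 4 stayed called and without metformin C 3 did, and with metformin C and starvation B both left out 0 did. With arrays shifted to a common median 2 of the 8 stayed called. MYOF, a ferlin of membrane repair singled out after its value was seen, had the widest difference of the further target genes, 0.95, at an adjusted p of 0.108.

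Starvation with metformin differs from normal growth in both medium and metformin. In this comparison 14 genes of the lists other than CCN1 and CCN3 were called, 7 in each direction. Of all probe sets 4.63% rose and 4.44% fell. The 14 genes were 1 rise and 3 falls among the 27 further target genes, 2 rises and 2 falls among the 27 Hippo kinases and adaptors and among the 14 TGF-beta genes, 1 fall among the 10 co-activators and partners, 1 rise among the 14 CCN receptors and 2 rises among the 5 TAM genes, with some genes counted in more than 1 list. TGFB2 (0.75), ITGA5 (0.54), SAV1 (0.46) and WWC3 (0.41) were among the rises. The TAM receptors TYRO3 (0.71) and MERTK (0.53), relatives of AXL, also rose, as did the TGF-beta effector SMAD3 (0.34). The falls were AMOT (-0.85), BIRC5 (-0.56), TEAD4 (-0.56), the TGF-beta receptors TGFBR1 (-0.44) and TGFBR2 (-0.31), SLIT2 (-0.39) and the kinase TAOK2 (-0.34), which acts upstream in the Hippo pathway. Adjusted p-values lay between 0.00583 (TGFB2) and 0.0393 (TGFBR2) by limma. TYRO3, MERTK, SMAD3, TGFBR1, TGFBR2 and TAOK2 were not called in starvation with metformin against starvation. TGFBR1 had 1 exact value on all 3 starvation arrays. Without normal growth A, B or C 2, 3 and 3 of the 14 stayed called, and without metformin A, B or C 10, 13 and 12 did. TYRO3 was 9.68, 9.98 and 9.69 with metformin and 9.11, 9.10 and 9.03 under normal growth, whereas AXL differed by -0.01 (95% interval -0.33 to 0.30).

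Transcripts of the co-activators themselves were not called in the 3 comparisons as fitted above. YAP1 had log2 signals of 10.44, 10.20 and 10.44 with metformin, 10.03, 10.01 and 10.07 under starvation, and 10.08, 10.04 and 10.03 under normal growth. The metformin arrays lay above all others, with differences of 0.33 from starvation (adjusted p = 0.0937) and 0.31 from normal growth (adjusted p = 0.0698 by limma). Of all probe sets 25.2% and 28.4% lay apart, in either direction, in these comparisons. YAP1 was called in 4 of 15 alternative fits against starvation (lowest adjusted p = 0.0259) and in 5 of 14 against normal growth (0.0245). WWTR1, which encodes TAZ, differed by -0.08 and -0.13 in these comparisons. TEAD1 differed by 0.23 and 0.13, TEAD2 by 0.02 and 0.02, TEAD3 by 0.04 and 0.19 and LATS1 by 0.20 and 0.15, with adjusted p-values of 0.146 or more for these 4 genes. SRF, the serum response factor that drives immediate early genes such as CCN1, differed by 0.02 and -0.01, and GAS6, the ligand of AXL, by -0.03 and -0.03 with a signal below the array median. The array measures transcripts, so phosphorylation or location of YAP was not measured.

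**Figure D3:**
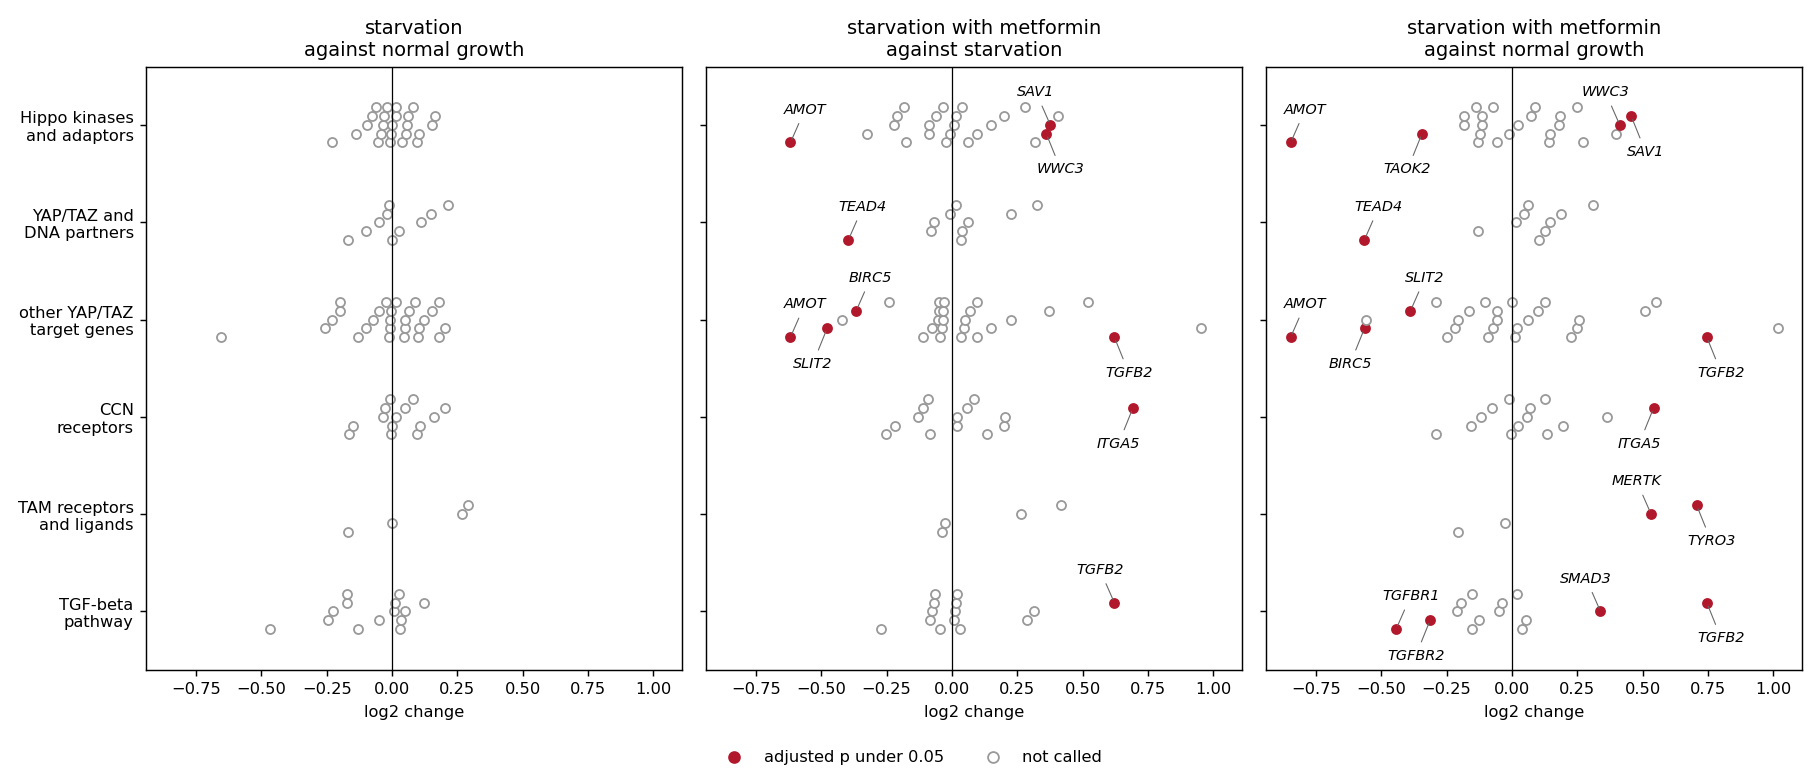
Log2 change (horizontal axis) of the pathway genes by list (rows) in the 3 comparisons, leaving out the 10 genes themselves, with filled and named points for an adjusted p under 0.05. The starvation panel has 0 called genes, and in the metformin panels genes such as TGFB2 and ITGA5 rise while AMOT and TEAD4 fall.

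For the 2 called genes, the named genes with the most similar pattern were taken as those with the smallest root mean square difference of log2 signals, each centred on its mean over the 9 arrays. For CCN1 they were AHR, the aryl hydrocarbon receptor (0.04), SRXN1, an antioxidant sulfiredoxin (0.06), and GPNMB, a lysosomal and melanosomal glycoprotein (0.07). AHR averaged 9.18 with metformin, 8.51 under starvation and 8.52 under normal growth, SRXN1 10.84, 10.17 and 10.22 in this order, and GPNMB 6.06, 5.30 and 5.27. All 3 had the order of CCN1 on the metformin arrays, highest on A and lowest on B, which their choice by similarity over these arrays favours. For CCN3 they were DPYSL3, a cytoskeletal protein of neurons (0.16), ENC1, an actin-binding protein (0.19), and GNG2, a G protein gamma subunit (0.20). DPYSL3 averaged 7.46 with metformin, 8.08 under starvation and 8.92 under normal growth, ENC1 5.61, 5.98 and 7.13, and GNG2 5.66, 6.29 and 6.87. These distances describe 9 arrays that share their groups and carry no p.

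**Figure D4:**
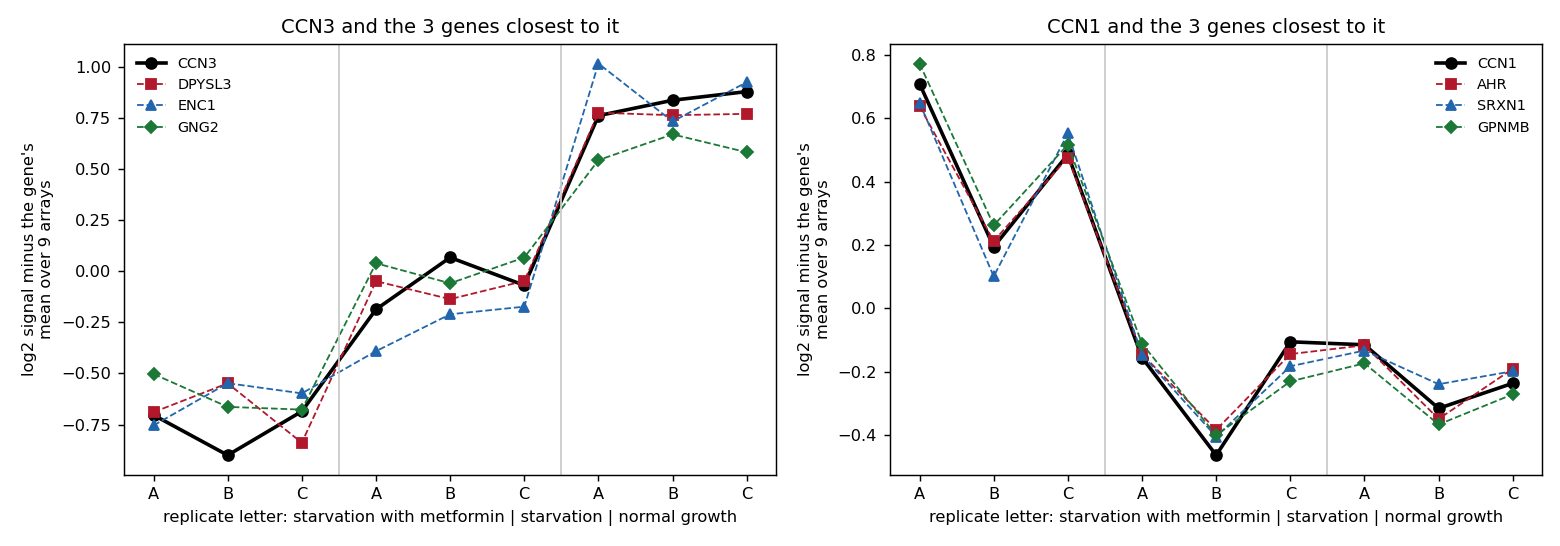
Log2 signal minus the gene's mean over the 9 arrays (vertical axis) on each array, for CCN3 (left) and CCN1 (right) and the 3 genes closest to each. The CCN3 panel has 3 levels, lowest with metformin and highest under normal growth, and the CCN1 panel is raised only on the 3 metformin arrays.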

How the data were processed

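Expression was measured on 9 single-colour arrays, 3 in each of 3 groups. The authors' deposited values are log2 signals, made by RMA. Expression Console and limma appear in the submitters' processing notes and Affymetrix Power Tools in the published methods, with versions and genome build not given in the sources here. No further normalization was applied, and the array number limits the precision. In the annotation 19460 probe sets have 1 symbol, 1754 have several and 12083 have none, and 19429 of the first were matched to RefSeq by Entrez identifier with the same symbol.

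Groups were taken from the sample titles and compared in R 4.3.3 with limma 3.58.1 (lmFit, eBayes), using the 6 arrays compared, no block and Benjamini-Hochberg adjustment over all 33297 probe sets. Scripts were tested on simulated data. The text names the 10 genes and CCN6, list genes at an adjusted p under 0.05 in any comparison, YAP1, WWTR1, TEAD1 to TEAD4, LATS1, SRF and GAS6 whatever their p, and the 3 genes nearest in pattern to each called gene. MYOF falls outside this rule and was chosen after its value was seen. Some list genes are not reported here. The genes and lists were chosen with earlier results of these data known. Alternatives were a fit of all 9 arrays, shifting arrays to a common median, repeating quantile normalization, dropping probe sets under the 40th percentile, testing single-symbol probe sets alone, averaging the probe sets of a gene, the trend and robust options, the replicate letter as a block and leaving out each array. Leaving out both arrays with the highest medians was chosen after seeing the data.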

Additional observations from a re-analysis of the deposited data

How the results depend on the processing

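CCN3 kept its direction in all 14, 15 and 14 alternatives of starvation against normal growth, starvation with metformin against starvation and starvation with metformin against normal growth, and was called in 7, 8 and 13 of them, with adjusted p-values of 0.00887 to 0.281, 0.00280 to 0.124 and 9.38e-05 to 0.0607. CCN1 against normal growth was called in 8 of 14, with log2 changes of 0.56 to 0.82. The number of the 10 genes called was 1 in starvation against normal growth, and 0 without any 1 array. In starvation with metformin against starvation it was 1, and 0 to 1 without 1 array, 3 in the fit of all 9 arrays, 2 without dim probe sets, 2 with single-symbol probe sets only, 2 with the trend and robust options and 0 with the 2 arrays of highest median left out. In starvation with metformin against normal growth it was 2, and 1 to 2 without 1 array. Same-letter correlations of deviations between groups ran from -0.25 to 0.29 and the labels do not say that letters pair the arrays, so the letters are only names. With the replicate letter as a block 0 of the 10 genes and 0 of all probe sets were called in each comparison, and CCN3 had adjusted p-values of 0.225, 0.124 and 0.0607. Without the block the calls over all probe sets were 50, 1425 and 3021, and without 1 array they were 0 to 22, 0 to 1189 and 439 to 3734. The other fits, with the block fit counted among them, gave 0 to 155, 0 to 3368 and 0 to 4319, the cause not tested.

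Changes of sign occurred only in uncalled genes with small differences. In starvation against normal growth CCN5 was 0.000193 with a common median and 0.0131 with quantile normalization again. In starvation with metformin against starvation AJUBA was -0.0249 with a common median, -0.0295 with quantile normalization again and -0.0160 without the 2 arrays of highest median. Without 1 array, the ranges in starvation against normal growth were -0.0869 to 0.0918 for CCN1, -0.0957 to 0.0251 for CCN2, -0.0951 to 0.0881 for CCN5 and -0.0840 to 0.00840 for AMOTL2. In starvation with metformin against starvation they were -0.186 to 0.0118 for CCN4, -0.133 to 0.0501 for CCN5, -0.0976 to 0.0245 for ANKRD1, -0.0162 to 0.0347 for AJUBA and -0.192 to 0.0612 for AXL. In starvation with metformin against normal growth they were -0.143 to 0.0548 for CCN4, -0.109 to 0.0375 for CCN5, -0.0777 to 0.0445 for ANKRD1 and -0.132 to 0.121 for AXL. ANKRD1 has no value without dim probe sets because it is one of them. With 3 arrays a group, uncalled genes may still differ.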
